A study of Mus musculus with 16 samples.

Results

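The 6 mouse Dlx genes, Dlx1 to Dlx6, were followed in bulk RNA-seq of 16 primary rhabdoid tumors, each from a different mouse. They are the family's members by name, taken up with earlier results of these data known, and all 6 were found among the 24982 genes of the count table. All mice were Smarcb1flox/flox;R26-CreERT2 on a mixed 129/SV and C57BL/6 background. In these mice tamoxifen given to the dam activates a Cre recombinase that is present in every tissue and deletes Smarcb1, a subunit of the SWI/SNF chromatin remodeling complex, in the embryo. No normal tissue was compared, and all groups share this deletion. The 5 intraCNS tumors lay in the brain and belong to the Shh subgroup of the study. They were induced at embryonic day (E) 6 and collected at 30 to 180 days of age. The 11 Myc tumors comprised 6 intracranial extra-CNS tumors, which lay inside the skull and outside the brain tissue (52 to 170 days), and 5 extracranial tumors (80 to 210 days). The extracranial tumors came from the jaw (43987A and R26P123), the mouth (43998A), the nose (43990A) and the back (43825B). Of the Myc tumors, 8 were induced at E8, 1 at E7 and 2 at E6. Day of induction and subgroup are thus partly confounded. Mouse 43990A is extracranial in the sample labels and intracranial in the sample list of the study, and it was kept here as extracranial.

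Dlx genes encode homeodomain transcription factors, relatives of Drosophila Distal-less, and lie in the genome as convergent pairs that share enhancers. In the forebrain, Dlx1 and Dlx2 act first in progenitors of the ganglionic eminences and are followed by Dlx5 and Dlx6 as cells become GABAergic neurons. In the pharyngeal arches, Dlx1 and Dlx2 are used in the upper and lower jaw primordia, whereas Dlx5 and Dlx6 are used in the lower jaw primordium under the control of endothelin 1, and Dlx3 and Dlx4 near its tip. The comparison of Shh and Myc tumors therefore asks which members of the family each tumor used.

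The pairs lie on 3 chromosomes of the mouse genome (GRCm38, the build called mm10, with GENCODE M21 gene models). Dlx1 (chr2:71528113-71533981, plus strand) and Dlx2 (chr2:71543408-71546754, minus strand) are 9426 bp apart. Dlx6 (chr6:6863334-6868568, plus strand) and Dlx5 (chr6:6877805-6882085, minus strand) are 9236 bp apart. Dlx3 (chr11:95120119-95125296, plus strand) and Dlx4 (chr11:95140447-95146263, minus strand) are 15150 bp apart. The homeobox, the coding stretch for the DNA-binding domain, is the most similar portion of these genes, and its sequence is shown for the 4 members on which the results turn because it bears on whether reads can be assigned to 1 paralog. It is 180 bases long and split over 2 exons in each gene. The spans, introns included, are chr2:71531025-71532311 for Dlx1, chr2:71544877-71545515 for Dlx2, chr6:6878441-6879657 for Dlx5 and chr6:6865140-6867088 for Dlx6. Sequences are given on the coding strand, 5′ to 3′, and capitals mark bases that differ from Dlx1.
Dlx1: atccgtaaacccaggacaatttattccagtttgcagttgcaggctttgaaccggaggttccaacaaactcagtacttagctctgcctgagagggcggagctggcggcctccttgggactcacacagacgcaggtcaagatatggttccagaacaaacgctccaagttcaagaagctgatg
Dlx2: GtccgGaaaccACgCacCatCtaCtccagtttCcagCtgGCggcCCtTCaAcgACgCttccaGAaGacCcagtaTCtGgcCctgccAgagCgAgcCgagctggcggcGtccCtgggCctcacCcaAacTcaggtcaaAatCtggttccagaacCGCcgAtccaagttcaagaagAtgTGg
Dlx5: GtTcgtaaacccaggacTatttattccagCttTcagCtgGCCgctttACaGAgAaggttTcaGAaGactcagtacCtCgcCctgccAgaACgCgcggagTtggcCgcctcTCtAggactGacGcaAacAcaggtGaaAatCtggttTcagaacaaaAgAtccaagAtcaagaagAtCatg
Dlx6: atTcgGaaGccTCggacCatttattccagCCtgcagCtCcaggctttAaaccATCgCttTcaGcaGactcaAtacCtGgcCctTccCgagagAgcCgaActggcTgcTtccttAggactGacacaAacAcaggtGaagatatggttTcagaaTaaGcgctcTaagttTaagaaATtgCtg
Dlx2, Dlx5 and Dlx6 differed from Dlx1 at 47, 43 and 42 of these bases. Between any 2 of the 6 members the homeoboxes were 66.1 to 81.7% identical in bases, and the longest identical run between their transcripts was 11 to 23 bases. The reads were 100 bases long, so no read of full length fits 2 members without mismatches.

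Total counts were between 17889968 and 110177889 per tumor, and the floor of 3 counts used here corresponds to 0.0272 to 0.168 CPM (counts scaled to the library size). Smarcb1 itself was at 3.99 to 58.1 TPM (the deposited unit, scaled to gene length and library size) in Shh tumors and at 6.48 to 43.7 TPM in Myc tumors. Summed over 8 oligodendrocyte markers, tumor 29048 of the Shh group stood apart with 6838 TPM, against 53.9 to 167 TPM in the other 4 Shh tumors, and it also had the highest sum of 7 markers of mature neurons (3764 TPM). Without R26P115, a Myc tumor, the number of genes called between Shh and Myc tumors went from 5689 to 6649, more than for any other tumor left out. In bulk tumors, fewer cells of a type and less RNA per cell cannot be told apart. The labels name separate mice, so the spread between tumors is a spread between animals.

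Dlx1 and Dlx2 were high in every Shh tumor and in 6 of the 11 Myc tumors. Dlx1 was at 25.4 TPM in 29048, 84.0 in 29050A, 119 in R26P98, 176 in R26P87 and 329 in 38594A (147 ± 116 TPM, SD, n = 5). In Myc tumors it ran from 0.302 to 77.7 TPM with a median of 10.7 (17.9 ± 23.3 TPM, SD, n = 11). Only 29048 among the Shh tumors overlapped with the Myc tumors, and the other 4 lay above every Myc tumor. Dlx2 was at 12.6 TPM in 29048, 44.6 in 29050A, 96.9 in R26P98, 115 in 38594A and 121 in R26P87 (78.1 ± 47.4 TPM, SD, n = 5). In Myc tumors Dlx2 ran from 0.295 to 52.5 TPM with a median of 10.4 (18.1 ± 20.6 TPM, SD, n = 11). For this gene 3 Shh tumors lay above every Myc tumor. The ratio of Dlx1 to Dlx2 TPM was 1.23 to 2.87 in Shh tumors (median 1.88) and 0.375 to 1.51 in Myc tumors (median 1.03), and the ranges overlap.

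**Figure D1:**
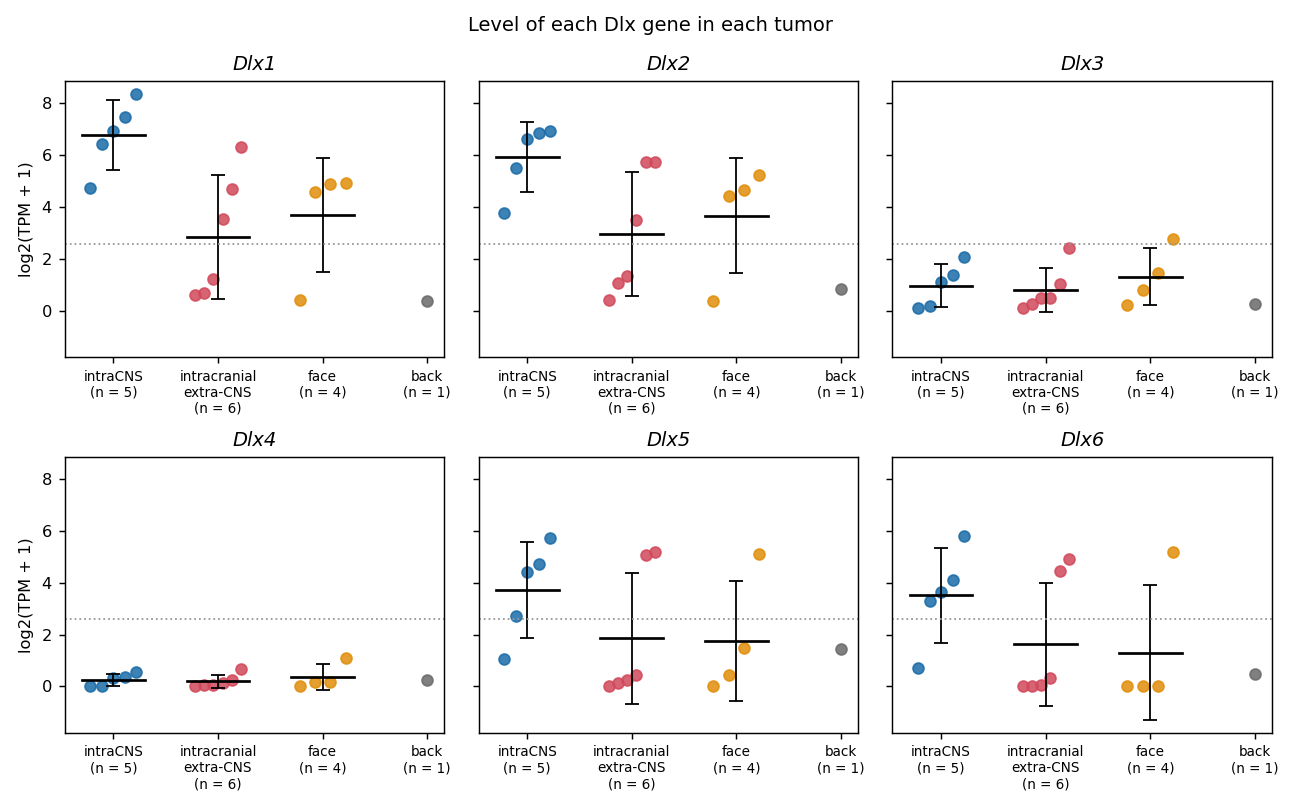
Level of each Dlx gene as log2(TPM + 1) on the vertical axis, by tumor site, with 1 point per tumor, bars for the mean and whiskers for the SD (none for the single back tumor); the dotted line is 5 TPM. Dlx1 and Dlx2 lie above the line in all 5 intraCNS tumors and are split within the intracranial extra-CNS and face groups, and Dlx4 lies below it in every tumor.

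The Myc tumors were not spread evenly between these extremes. For Dlx1, 5 Myc tumors were at or under 1.34 TPM and 6 at or above 10.7 TPM, with none in between. The same 6 tumors were at or above 10.4 TPM for Dlx2, and the other 5 at or under 1.55 TPM. A level of 5 TPM, which lies in both gaps and was chosen after the values were seen, is used below to say that a gene was high. The 6 Myc tumors high for both genes were 43987A and R26P123 (jaw), 43998A (mouth), and 43989C, 43992A and 29941C (intracranial extra-CNS). All 6 were among the 8 Myc tumors induced at E8, and neither gene was high in the 2 induced at E6 or the 1 induced at E7. With 3 Myc tumors induced before E8, the day of induction and the individual tumor cannot be told apart here.

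Tested over all genes, no Dlx gene passed the threshold between Shh and Myc tumors. The threshold was an adjusted p under 0.05 with a log2 fold change beyond 1 in either direction, in edgeR (quasi-likelihood, p adjusted over 21854 genes by Benjamini and Hochberg), and 26% of all genes passed it. Of the 6 Dlx genes, 0 passed, and 1 had an unadjusted p under 0.05, as did 44.4% of all genes. That gene was Dlx1, with a log2 fold change of 2.51 (SE 1.04, Shh over Myc) and an edgeR adjusted p of 0.0744. For Dlx2 the log2 fold change was 1.57 (SE 1.01) with an edgeR adjusted p of 0.236. The median over all genes was -0.15.

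The call on Dlx1 depended on the test and on 1 tumor. DESeq2 called 1 of the 6 Dlx genes, Dlx1, with an adjusted p of 0.0307, where it called 29.1% of all genes. On log2(TPM + 1), limma called Dlx1 (log2 difference 3.85, adjusted p 0.00798) and Dlx2 (2.91, adjusted p 0.0336), where it called 24.8% of all genes. Without 29941C, the Myc tumor with the highest Dlx1, edgeR gave a log2 fold change of 3.07 and an adjusted p of 0.033. Over the omission of each tumor in turn, the log2 fold change of Dlx1 stayed between 1.98 and 3.07, and without 29048 it was 2.78 (edgeR adjusted p 0.0683). In a two-sided exact permutation test of log2(TPM + 1) over all 4368 splits of the tumors, Dlx1 differed by 3.85 with an exact p of 0.00275 and Dlx2 by 2.91 with an exact p of 0.0147. The log2 mean of Dlx1 was 6.78 in Shh and 2.93 in Myc tumors, and that of Dlx2 was 5.94 and 3.03.

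Mouse names follow 2 schemes, numbers and the prefix R26P, for which the labels give no reason. Among the numbered mice (3 Shh, 8 Myc) the difference in log2(TPM + 1) was 3.32 for Dlx1 (exact permutation p 0.0485) and 2.17 for Dlx2 (exact permutation p 0.158). Among the R26P mice (2 Shh, 3 Myc) it was 4.93 and 4.23, each with an exact permutation p of 0.2, which is the smallest that design can give. Among tumors induced at E6 (5 Shh, 2 Myc), all 5 Shh tumors lay above both Myc tumors for either gene. Both Myc tumors induced at E6 were low for Dlx1 and Dlx2, so restricting to E6 removes every Myc tumor high for them. There the difference was 6.25 for Dlx1 and 4.98 for Dlx2, with an exact permutation p of 0.0952, again the smallest possible. In edgeR fitted to those 7 tumors both genes passed the threshold, as did 16.9% of all genes, Dlx1 with a log2 fold change of 7.76 (adjusted p 0.00816) and Dlx2 with 5.79 (adjusted p 0.0129). The direction was thus the same within each scheme. At E6 the choice of tumors set the outcome, so the E6 result adds no support.

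Markers of other cell types moved between the same groups. In the edgeR fit, which called 12.9% of all genes higher in Shh tumors and 13.1% lower, 7 of 8 oligodendrocyte markers were called higher, and 5 of 8 markers of mature forebrain interneurons. Of 7 markers of mature neurons 3 were called higher and 0 lower, with sums of 78.9 to 3764 TPM in Shh and 36.3 to 1722 TPM in Myc tumors. The oligodendrocyte markers summed to 42.6 to 137 TPM in Myc tumors, a range that overlaps with the 53.9 to 167 TPM of the Shh tumors other than 29048. Of 8 skeletal muscle markers 5 were called lower in Shh tumors, with sums of 3.9 to 6.39 TPM in Shh and 4.35 to 738 TPM in Myc tumors. Of 6 macrophage and leukocyte markers 5 were called lower, with sums of 158 to 220 TPM in Shh and 211 to 2276 TPM in Myc tumors. The interneuron markers, which include known targets of Dlx factors, summed to 16.1 to 823 TPM in Shh and 4.1 to 2120 TPM in Myc tumors. Their part in the Dlx values was not tested. Without 29048 and R26P115 together, Dlx1 had a log2 fold change of 2.65 (edgeR adjusted p 0.0728) and Dlx2 of 1.72 (edgeR adjusted p 0.214).

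Dlx5 and Dlx6, the second forebrain pair and the lower jaw pair, were high in 4 of 5 Shh tumors and in 3 of 11 Myc tumors. Dlx5 was at 1.10 TPM in R26P87, 5.48 in 29048, 20.2 in R26P98, 25.4 in 29050A and 52.3 in 38594A (20.9 ± 20.2 TPM, SD, n = 5). Tumor 29048 was thus barely above 5 TPM for Dlx5, and it lay below the widest gap among Shh tumors, 5.48 to 20.2 TPM. In Myc tumors Dlx5 ran from 0 to 35 TPM with a median of 0.362, and 8 tumors at or under 1.81 TPM were separated from 3 at or above 32.6 TPM. The 3 high Myc tumors lay within the Shh range, so that the groups overlap at their upper ends. Dlx6 was at 0.620 TPM in R26P87, 8.88 in 29048, 11.5 in R26P98, 16.0 in 29050A and 54.7 in 38594A (18.3 ± 21.1 TPM, SD, n = 5). In Myc tumors Dlx6 ran from 0 to 35.4 TPM with a median of 0.0388. It had 0 counts in 5 Myc tumors, where 3 counts would be 0.0864 to 0.151 CPM. The same 3 Myc tumors were high for both genes: 43987A from a jaw (33.2 TPM Dlx5, 35.4 TPM Dlx6), 43989C (35.0 and 28.9 TPM) and R26P170 (32.6 and 21.0 TPM), both intracranial extra-CNS. For both genes these 3 lay between the highest and the second highest Shh tumor.

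Neither gene of this pair differed between the subgroups beyond the spread of the tumors. In edgeR the log2 fold change was 0.60 (SE 1.45, adjusted p 0.765) for Dlx5 and 0.70 (SE 1.69, adjusted p 0.766) for Dlx6. The exact permutation test of log2(TPM + 1) gave 1.95 (exact p 0.105) and 2.11 (exact p 0.107). Without 38594A, the Shh tumor with the highest levels, the edgeR log2 fold changes were -0.05 and -0.26. The sign of the edgeR fold change thus rested on 1 tumor for both genes. SEs of this size leave changes of several fold in either direction within the error.

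Taken as pairs, the tumors fell into all 4 possible combinations. In 4 Shh tumors both pairs were high, and in R26P87 only Dlx1 and Dlx2 were. Among Myc tumors both pairs were high in 2 (43987A and 43989C), Dlx1 and Dlx2 alone in 4 (R26P123, 43998A, 43992A and 29941C), Dlx5 and Dlx6 alone in 1 (R26P170), and neither pair in 4 (43825B, 43990A, 29225D and R26P115). The mixture differed as well as the total. The summed TPM of Dlx5 and Dlx6 over that of Dlx1 and Dlx2 was 0.00579 in R26P87, 0.146 in R26P98, 0.241 in 38594A, 0.322 in 29050A and 0.378 in 29048, below 1 in all 5 Shh tumors. In the Myc tumors with Dlx5 and Dlx6 high it was 1.30 in 43987A, 3.03 in 43989C and 31.8 in R26P170, above 1 in all 3. In the 4 Myc tumors with Dlx1 and Dlx2 alone it was 0 to 0.0281. These combinations were defined from the values and are a description, with no test.

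**Figure D2:**
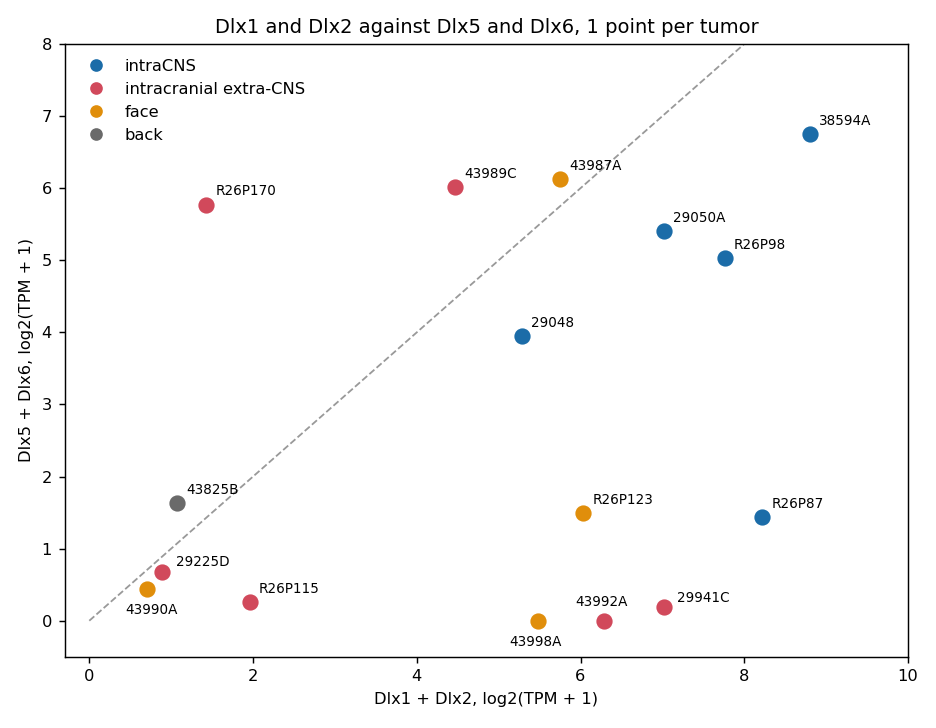
Summed TPM of Dlx1 and Dlx2 (horizontal axis) against that of Dlx5 and Dlx6 (vertical axis), both as log2(TPM + 1), with 1 point per tumor colored by site and a dashed line at equal levels. All 5 intraCNS tumors lie below the line, and 43987A, 43989C and R26P170 lie above it at high Dlx5 and Dlx6.

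The sum of all 6 members was 53.0 to 551 TPM in Shh tumors (median 250) and 2.56 to 130 TPM in Myc tumors (median 55.8). Dlx1 and Dlx2 made up 71.7 to 98.3% of that sum in Shh tumors and 3.03 to 99.8% in Myc tumors. R26P170 had the lowest and 29941C the highest of these shares. Among Myc tumors the makeup of the family thus covered nearly its whole possible range, while Shh tumors kept Dlx1 and Dlx2 as the larger portion in each case.

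Whether the jaw and face tumors used the family differently from the other Myc tumors was asked within the Myc subgroup. The 2 jaw tumors shared high Dlx1 and Dlx2, at 29.2 and 23.9 TPM in 43987A and 28.3 and 36.3 TPM in R26P123. They were unlike each other in the lower jaw pair, since Dlx5 and Dlx6 were at 33.2 and 35.4 TPM in 43987A and at 1.81 and 0 TPM in R26P123. Dlx1 and Dlx2 were high in 3 of the 4 face tumors, in 3 of the 6 intracranial extra-CNS tumors and not in the back tumor. Dlx5 and Dlx6 were high in 1 of 4 face tumors, in 2 of 6 intracranial extra-CNS tumors and not in the back tumor. Each pair was thus found high in tumors of the face and inside the skull.

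No Dlx gene passed a test by site. Between the 6 intracranial and the 5 extracranial Myc tumors, edgeR called 0.00470% of 21261 genes, which is 1 gene, and 12.3% had an unadjusted p under 0.05. That gene was Ttc39aos1 (log2 fold change 4.86, adjusted p 0.0356), which was named after its value was seen. Of the 6 Dlx genes edgeR called 0, 0 had an unadjusted p under 0.05, and DESeq2, which called 2.30% of all genes, also called 0. The log2 fold changes of the Dlx genes, intracranial over extracranial, lay between -0.82 and 0.60 with edgeR adjusted p between 0.81 and 0.979. Between the 4 face tumors and the 6 intracranial ones, edgeR called 0 of 21190 genes (percent called 0), 10.6% had an unadjusted p under 0.05, and DESeq2 called 1.90%. There edgeR and DESeq2 called 0 of 6 Dlx genes and 0 had an unadjusted p under 0.05, with log2 fold changes between -0.38 and 0.93. Their SEs were 1.18 to 2.40 in that comparison, so that changes of several fold lie within the error. Under the alternatives every Dlx gene changed sign at least once in both comparisons, with 0 called. Dlx6 ran from -0.75 to 6.46 between intracranial and extracranial tumors and from -10.32 to 1.06 between face and intracranial tumors, and Dlx5 from -0.21 to 3.57 and from -4.04 to 0.41.

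Dlx3 and Dlx4, the pair of the distal arch and, for Dlx3, of the differentiating epidermis, were low in nearly all tumors. Dlx3 had 2 to 214 counts and ran from 0.0619 to 3.19 TPM in Shh tumors (median 1.15) and from 0.0798 to 5.84 TPM in Myc tumors (median 0.42). Dlx4 ran from 0 to 0.467 TPM in Shh and from 0 to 1.16 TPM in Myc tumors, had 0 counts in 4 tumors and was at or under 3 counts in 10 of 16. The groups overlap almost completely for both genes. In edgeR the log2 fold change was -0.70 for Dlx3 (SE 1.05, adjusted p 0.625) and -0.71 for Dlx4 (SE 1.16, adjusted p 0.652). Without R26P123 that of Dlx3 was -0.17 (edgeR adjusted p 0.909), and without 43990A that of Dlx4 was -0.02 (edgeR adjusted p 0.99).

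The highest Dlx3, 5.84 TPM, was in the jaw tumor R26P123. In that tumor 9 keratinocyte markers summed to 2077 TPM and all 9 were above 3 counts, with Krt5 at 232 and Krt14 at 599 TPM. In the other 15 tumors the sum was 2.26 to 40.1 TPM. The second highest Dlx3, 4.35 TPM, was in 43992A, which had the lowest of these sums, 2.26 TPM. A list of 6 tooth epithelium markers stayed at 0 to 2.22 TPM in all tumors. The part of skin cells in the Dlx3 value of R26P123 was not tested. The highest Dlx4, 1.16 TPM from 29 counts, was in the nose tumor 43990A.

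Each locus also carries antisense genes, and their values were read beside the coding genes. Dlx1as (chr2:71516454-71537891, minus strand) spans all of Dlx1. It was at 2.19 to 27.6 TPM in Shh tumors and at 0 to 64.7 TPM in Myc tumors, and its edgeR log2 fold change was -0.62 (SE 1.40, adjusted p 0.748). Without 29941C, which had 64.7 TPM, it was 0.22 (edgeR adjusted p 0.906). On log2(TPM + 1) the difference was 0.94 (exact permutation p 0.376), so that no direction can be given. In tumors induced at E6 alone edgeR gave 5.21 (adjusted p 0.0424), but both Myc tumors there were among those low for Dlx1 and Dlx2.

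Relative to Dlx1, Dlx1as took a larger portion in most Myc tumors. Its share of the summed counts of Dlx1 and Dlx1as was 2.43% in R26P87, 7.76% in R26P98, 7.77% in 38594A, 7.96% in 29048 and 10.2% in 29050A (95% Wilson interval 9.51 to 11). In Myc tumors it was 0 to 45.8% with a median of 27.3%, and 10 of 11 lay above every Shh tumor. The exception was 43990A, with 0 of 13 counts (interval up to 22.8%), and 43825B had 1 of 9 counts (1.99 to 43.5%). Counts were also few in 29225D (7 of 46, interval 7.57 to 28.2%) and R26P115 (7 of 48, 7.25 to 27.2%). The intervals of 43825B, 29225D and R26P115 include the 10.2% of 29050A. Among the 6 Myc tumors with high Dlx1 it was 12.8% in R26P123 (11.1 to 14.7), 27.3% in 43998A (24.9 to 29.9), 37.5% in 43989C (32.9 to 42.4), 42.1% in 43987A (40.4 to 43.9), 45.5% in 29941C (44.8 to 46.2) and 45.8% in 43992A (42.9 to 48.7). All 6 intervals lie above the interval of the highest Shh tumor. Wilson intervals cover counting error only, and this share was chosen after its values were seen and has no test. The libraries were stranded, but the strand setting of the counting is not given in the sources used here. The 2 genes share 335 exonic bases, 20.6% of those of Dlx1as and 6.21% of those of Dlx1, and reads there could count for either gene if strand was not used.

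**Figure D3:**
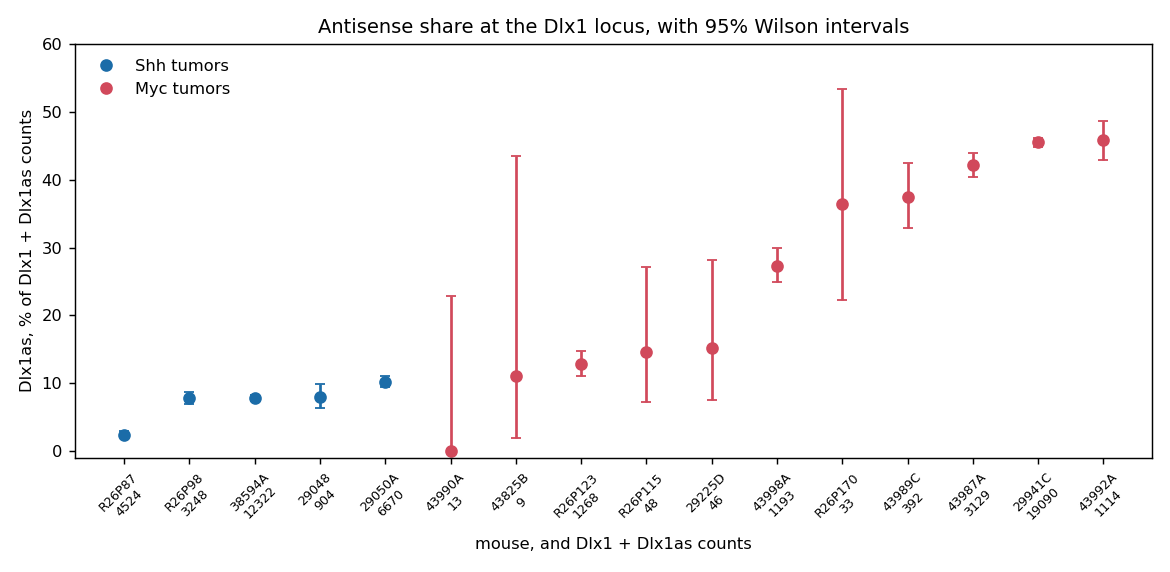
Share of Dlx1as in the summed counts of Dlx1 and Dlx1as (vertical axis, percent) for each tumor (horizontal axis, with the summed counts under each name), with bars for 95% Wilson intervals. The Shh tumors sit between 2.43 and 10.2% and 10 of 11 Myc tumors sit above them.

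Dlx6os1 (chr6:6820189-6871592, minus strand), also known as Evf2, spans Dlx6 but shares no exonic base with it. It was at 0.219 TPM in R26P87, 1.59 in 29048, 5.90 in R26P98, 12.7 in 29050A and 13.9 in 38594A. In Myc tumors it ran from 0 to 4.62 TPM with a median of 0.04, and its 3 highest values were in the tumors with high Dlx5 and Dlx6 (2.88 TPM in 43989C, 4.11 in 43987A and 4.62 in R26P170). Its edgeR log2 fold change was 2.14 (SE 1.45, adjusted p 0.261), and on log2(TPM + 1) the difference was 1.76 (exact permutation p 0.0307). Dlx6os1 took 43.1 to 77.2% of the summed counts with Dlx6 in Shh tumors, and 29.8% in 43989C, 33% in 43987A and 48.3% in R26P170. Dlx4os was highest in 43990A (4.61 TPM), the tumor with the highest Dlx4. Dlx6os2 had few counts in any tumor. Of the 4 antisense genes edgeR called 0 (26% of all genes), 0 had an unadjusted p under 0.05 (44.4% of all genes) and DESeq2 called 0 (29.1%), while limma on log2(TPM + 1) called 1, Dlx6os1 (24.8%).

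Printed here are 250 bases before a start of Dlx6os1 and before the start of Dlx2, as 2 examples from these loci. They are read 5′ to 3′ on the minus strand from the RefSeq table of promoters for GRCm38.p6. For Dlx6os1 that table holds 2 windows, chr6:6869534-6869783, which is printed, and chr6:6861684-6861933. Both belong to RefSeq starts that lie inside the longer GENCODE gene span given above. The window of Dlx2 is chr2:71546755-71547004. Capitals mark TAATTA, a core of sites bound by many homeodomain proteins, Dlx proteins among them. The motif is its own reverse complement, so that each match is on both strands.
Dlx6os1: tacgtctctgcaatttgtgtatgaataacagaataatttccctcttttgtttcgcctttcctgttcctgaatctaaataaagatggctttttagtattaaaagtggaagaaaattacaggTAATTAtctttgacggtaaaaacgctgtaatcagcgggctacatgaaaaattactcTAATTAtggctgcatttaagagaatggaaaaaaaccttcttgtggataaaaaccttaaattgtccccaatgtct
Dlx2: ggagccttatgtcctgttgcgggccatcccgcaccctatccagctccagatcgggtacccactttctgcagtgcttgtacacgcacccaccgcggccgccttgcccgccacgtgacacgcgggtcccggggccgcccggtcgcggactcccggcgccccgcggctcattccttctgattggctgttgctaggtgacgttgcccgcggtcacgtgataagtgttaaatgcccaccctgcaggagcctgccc
The printed window of Dlx6os1 holds 2 matches, has 33.2% G and C bases and 5 CpG. Its other window holds 1 match, with 34% G and C bases and 3 CpG, and that of Dlx2 holds 0 matches, with 66.4% G and C bases and 24 CpG. The windows of Dlx1, Dlx4os and Dlx6os2 also hold 0 matches, and no window was available for Dlx5 or Dlx6. Over 32851 windows of the same length, 4.84% hold the motif, and the medians are 52.4% G and C bases and 6 CpG. That share was not computed for windows as low in G and C bases as those of Dlx6os1. A match is a description of the letters and not evidence of binding.

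Likeness between genes over the tumors was measured as Pearson's r of log2(TPM + 1) against the 14803 genes whose mean count reached 50. Dlx3 and Dlx4, with mean counts of 46.2 and 5.44, were too low to be included. Over the 16 tumors, Dlx1 and Dlx2 were each other's nearest gene (r 0.977), followed for Dlx1 by Psip1 (0.919), which encodes a chromatin-binding coactivator, and Yeats4 (0.891), which encodes a reader of acetylated histones. For Dlx2 Smg6 (0.885), of nonsense-mediated decay, and Psip1 (0.868) came next. Dlx5 and Dlx6 were likewise each other's nearest (r 0.976), followed by Dlx6os1 (0.933 and 0.929) and Cdh23 (0.843 and 0.894), a cadherin of sensory hair bundles. Cdh23 was low throughout, at most 1.26 TPM in any tumor. Over the 11 Myc tumors alone, Dlx1 was nearest to Dlx2 (r 0.981), Dlx1as (0.954) and AW551984 (0.902), and Dlx2 to Dlx1, Dlx1as (0.929) and Yeats4 (0.902). Dlx5 was nearest to Dlx6 (0.976), Bean1 (0.970) and Dlx6os1 (0.967), and Dlx6 to Dlx6os1 (0.986), Dlx5 and Capn3 (0.968), a calpain protease. Bean1 was at most 3.38 TPM and Capn3 at most 6.57 TPM in Myc tumors. These values are descriptions over tumors that fall into separate high and low sets and share their libraries and depth. Within the 6 Myc tumors high for Dlx1 and Dlx2 the relation of these genes was not resolved (Pearson's r 0.78, exact permutation p 0.0931, and Spearman's rho 0.60, exact permutation p 0.242). Leaving out a further 2 tumors would leave too few for a correlation.

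The genes around the family were read from lists of its forebrain and arch pathways. In all, 6 lists were tested in the edgeR fit of Shh against Myc tumors, in which 12.9% of all genes were called higher in Shh tumors and 13.1% lower, with a median log2 fold change of -0.15. In limma, of all genes called, 75.5% were higher in Shh tumors on log2(TPM + 1) and 75.4% on log2(TPM + 0.1), against 49.7% in edgeR, and the limma counts of the lists are to be read against that. Among 14 transcription factors of the ganglionic eminences 7 were higher in Shh tumors, 0 were lower (0 also in DESeq2 and limma) and 7 did not pass, with a list median of 4.07. The study itself examined ganglionic eminence genes in these tumors, and the list was chosen with that known, so its count is not independent evidence of a direction. Gsx1, which acts above Dlx2 in the ganglionic eminence, was at 11.3 to 858 TPM in Shh tumors and at 0 to 0.441 TPM in Myc tumors (log2 fold change 11.43, SE 1.22, edgeR adjusted p 1.03e-05). The groups did not overlap for Gsx1, and R26P87, the Shh tumor with low Dlx5 and Dlx6, had its highest level. In CPM the groups did not overlap for 3 of the 14 genes, against 11.2% of all genes. Nkx2-1, of the medial ganglionic eminence (6.82, edgeR adjusted p 0.000344), and Sp8 (5.98, edgeR adjusted p 0.000505) were also higher, the latter from levels of at most 5.18 TPM. Olig2, Sp9 and Gsx2 were among the other genes called higher. The Myc tumors with high Dlx1 and Dlx2 thus had those genes without Gsx1 above 0.441 TPM.

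Among 19 genes known to act downstream of Dlx in the forebrain, 6 rose, 5 fell and 8 did not pass in Shh relative to Myc tumors, with a list median of 0.75. On log2(TPM + 1) limma called 8 higher and 2 lower, near the 75.5% higher among all its calls, with Lhx6, Maf and Penk no longer called and Erbb4 and Npas3 added. Slc32a1, the vesicular GABA transporter, was at 1.74 to 74.7 TPM in Shh and at 0 to 0.872 TPM in Myc tumors (6.90, SE 1.16, edgeR adjusted p 0.000329). Gad2, Sst, Gucy1a1 and Etv1 were also higher. Lhx8, a LIM homeobox gene that is used both in the ventral forebrain and in the oral mesenchyme, went the other way. It was at 0.0561 to 0.407 TPM in Shh tumors and reached 5 TPM in 9 of 11 Myc tumors, with up to 262 TPM in the jaw tumor R26P123 (-9.29, SE 1.80, edgeR adjusted p 0.000995). Penk, the precursor of enkephalin, was at 1.88 to 34.2 TPM in Shh and 2.11 to 3192 TPM in Myc tumors (-5.27, SE 1.77, edgeR adjusted p 0.0309). The call on Penk was lost without any 1 of the 5 Shh tumors (29048, 38594A, 29050A, R26P98 or R26P87), with edgeR adjusted p of 0.0557, 0.0691, 0.0687, 0.0553 and 0.0664. It was also lost in 5 of 10 other alternatives (-1.52, edgeR adjusted p 0.407, in tumors induced at E6 alone). Lhx6 and Maf were lower as well.

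**Figure D4:**
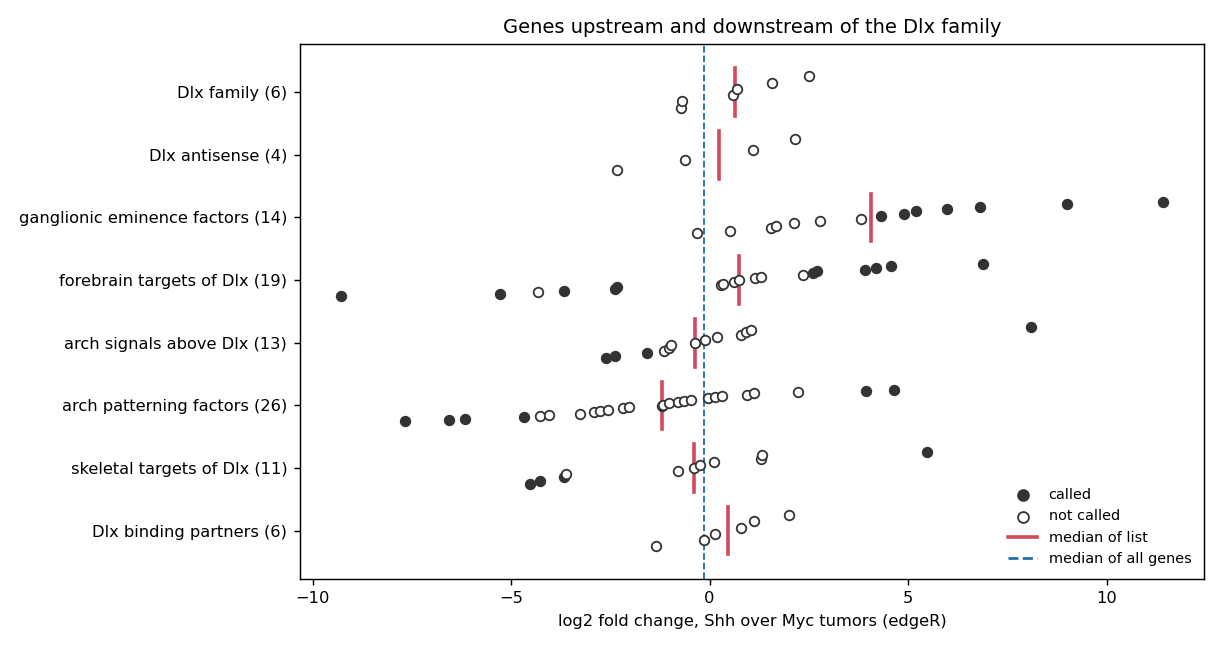
Fitted log2 fold change of Shh over Myc tumors (horizontal axis) for each gene of the Dlx family, its antisense genes and the 6 pathway lists (vertical axis, number of genes in brackets), with filled points for genes past the threshold, red bars for list medians and a dashed line for the median of all genes. The ganglionic eminence list is shifted to the right (median 4.07), and the forebrain targets spread to both sides.

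In the arch pathway above the Dlx genes, 1 of 13 genes was higher in Shh tumors, 3 were lower and 9 did not pass, with a list median of -0.36. On log2(TPM + 1) limma called 3 higher and 2 lower, where 75.5% of all its calls were higher. Fgf8, a signal of the arch epithelium and also of the rostral forebrain, was at 0.414 to 103 TPM in Shh and 0 to 0.26 TPM in Myc tumors (8.09, SE 1.16, edgeR adjusted p 9.86e-05). Furin, a protease that processes endothelin 1, was lower in Shh tumors (-2.60, edgeR adjusted p 0.000332), as were Plcb3, a phospholipase of the endothelin pathway (-1.57, edgeR adjusted p 9.64e-05), and Bmp4 (-2.38, edgeR adjusted p 0.0191). The call on Bmp4 was lost without 38594A (-2.23, edgeR adjusted p 0.052) and in 3 of 10 other alternatives (-0.76, adjusted p 0.514, in tumors induced at E6 alone). Edn1 itself, the ligand, was at 0.622 to 1.71 TPM in Shh and 0.51 to 4.95 TPM in Myc tumors and did not pass (-1.03, edgeR adjusted p 0.164).

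Of 26 factors that pattern the arches, 2 were higher in Shh tumors, 4 lower and 20 not past the threshold, 23.1% called, with a list median of -1.19. In limma 3 were called higher and 1 lower on log2(TPM + 1), and 4 higher and 2 lower on log2(TPM + 0.1), where 75.5% and 75.4% of all calls were higher. Hand2, a known target of Dlx5 and Dlx6 in the lower jaw, was higher in Shh tumors. It was at 84.1 to 439 TPM there and at 0 to 75.8 TPM in Myc tumors (3.94, SE 1.32, edgeR adjusted p 0.0302), and the groups did not overlap in TPM but did in CPM. In the Myc tumors with high Dlx5 and Dlx6 it was at 0.18 TPM in 43987A, 4.9 in R26P170 and 8.79 in 43989C, and its highest Myc level, 75.8 TPM, was in the back tumor 43825B, where Dlx5 was at 1.71 TPM. The call on Hand2 was lost without 29050A (3.87, edgeR adjusted p 0.0534) and without R26P98 (3.52, edgeR adjusted p 0.0712), in tumors induced at E6 alone (1.87, edgeR adjusted p 0.279) and without the intracranial extra-CNS tumors (3.34, edgeR adjusted p 0.181). Pou3f3, which marks the upper jaw primordium and is also a neural gene, was higher in Shh tumors (4.64, SE 1.14, edgeR adjusted p 0.00521).

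Alx1, a factor of the frontonasal mesenchyme, was lower in Shh tumors. It was at 0 to 1.91 TPM in Shh tumors and reached 521 TPM in the nose tumor 43990A (-7.67, SE 2.35, edgeR adjusted p 0.0195). In that tumor Dlx1 and Dlx2 summed to 0.636 TPM and Dlx5 and Dlx6 to 0.362 TPM. Among tumors induced at E6 the difference in Alx1 had the opposite sign (0.61). Dkk2 and Foxf1 were among the other genes called lower. In tumors induced at E6 alone, where fewer tumors were fitted, the calls on Nkx2-1, Sp8, Slc32a1 and Fgf8 were lost too (edgeR adjusted p 0.0761, 0.117, 0.0684 and 0.115), with log2 fold changes of 4.51, 5.79, 6.90 and 7.60. The call on Pou3f3 was lost without the intracranial extra-CNS tumors (3.73, edgeR adjusted p 0.0705), and that on Alx1 also in limma on log2(TPM + 1) (-3.04, adjusted p 0.075).

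Of 11 skeletal genes regulated by Dlx factors, 1 was higher in Shh tumors, 3 lower and 7 not past the threshold, with a list median of -0.40. On log2(TPM + 1) limma called 2 higher and 2 lower, where 75.5% of all its calls were higher. Runx2, which osteoblasts need to form, was at 0.776 to 5.1 TPM in Shh and 2.39 to 43.9 TPM in Myc tumors (-3.66, SE 0.67, edgeR adjusted p 0.000652). Spp1, a bone matrix protein that macrophages also make, was at 24.3 to 81.8 TPM against 32.3 to 1993 TPM (-4.27, SE 0.86, edgeR adjusted p 0.00127). Col1a1 was lower too (-4.52, edgeR adjusted p 0.0201), a call lost without 29050A (-4.39, edgeR adjusted p 0.0505) and in 4 of 10 other alternatives (-1.22, adjusted p 0.285, in tumors induced at E6 alone), and Col2a1, the collagen of cartilage, was higher in Shh tumors (5.49, edgeR adjusted p 0.000643). The sums of 8 osteoblast markers overlapped, at 29 to 286 TPM in Shh and 30 to 915 TPM in Myc tumors. The part of leukocytes, whose markers were higher in Myc tumors, in the value of Spp1 was not tested. Of 6 genes whose proteins bind Dlx proteins, edgeR called 0 (26% of all genes) and 3 had an unadjusted p under 0.05 (44.4% of all genes). DESeq2 called 2 higher and 1 lower (29.1% of all genes in either direction), and limma on log2(TPM + 1) called 3 higher and 0 lower (24.8%). Among them Maged1, a known partner of Dlx5, had an edgeR adjusted p of 0.0385 with a log2 fold change of 0.79, below the threshold on size.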

How the data were processed

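Polyadenylated RNA (TruSeq Stranded mRNA, 750 ng, 100-base paired reads) of 16 macrodissected frozen tumors was sequenced. Per the submitters' processing notes, the authors used Trim Galore, FastQC, Picard and STAR 2.5.3a on mm10, and per the labels the deposited tables hold raw counts per gene, not normalized. The authors also deposited TPM values, which sum to 1000000 in each tumor. Their annotation, gene lengths and strand setting are not given in the sources used here. Count to TPM ratios were divided by a common factor for each tumor. For genes with at least 50 counts, 100% of these scaled ratios lay within 5% of the gene's median ratio.

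Counts of the 21854 genes with any count were tested with edgeR 4.0.16 (TMM, quasi-likelihood, Benjamini-Hochberg) in R 4.3.3, on all 16 tumors for Shh against Myc and on the Myc tumors alone for site. The thresholds were an adjusted p of 0.05 and an absolute log2 fold change of 1. Groups followed the site in the labels, and the subgroup (intraCNS tumors Shh, all others Myc) followed the study. Single genes were compared as log2(TPM + 1) with two-sided exact permutation tests (scipy 1.17.1), and shares carry 95% Wilson intervals. Fold changes on the log2(TPM + 1) scale understate changes of low genes. Code was tested on simulated data. DESeq2 1.42.0, limma 3.58.1, other filters and scalings, and omission of tumors were alternatives. Homeoboxes were read from the GRCm38 genome with GENCODE M21 and promoter windows from RefSeq.

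The Dlx genes and the lists were chosen with earlier results of these data known. Named genes are the Dlx genes and their antisense genes, up to 4 called genes per list with the highest and lowest fold changes, and the 3 genes most like each Dlx gene. A few of these genes are counted in their lists but not reported here by name. Other called list members are named without values, and Edn1, Maged1 and single markers were named outside this rule after their values were seen.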

Additional observations from a re-analysis of the deposited data

Results flagged for a closer look

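In groups of 4 to 6 tumors, a tumor was marked where its gap to the nearest other tumor took an unusually large part of the whole range of the group (Dixon's test at the 95% level, which marks about 1 group in 20 by chance). Of 40 groups tested, for the 6 Dlx and 4 antisense genes, 15 were marked, and the groups overlap since the face tumors are also extracranial. All values here are log2(TPM + 1). Among the 4 face tumors, the nose tumor 43990A was far below the others for Dlx1 (0.42, the nearest other 4.59) and for Dlx2 (0.37, the nearest other 4.44). The same tumor was the highest for Dlx4 (1.11) and for Dlx4os (2.49), among the face tumors and among the 5 extracranial tumors alike. Its place as a face tumor rests on the labels, since the sample list of the study puts it inside the skull. The jaw tumor 43987A was the highest of both sets for Dlx6 (5.19), Dlx6os1 (2.35) and Dlx6os2 (0.18). Among the 6 intracranial extra-CNS tumors, R26P115 was the highest for Dlx4 (0.68) and Dlx4os (0.78), and 43989C was the highest for Dlx6os2 (0.24). The values for Dlx4, its antisense gene and Dlx6os2 rest on few counts.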

How the results depend on the processing

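No paired analysis was possible because all 16 tumors come from different mice. Between Shh and Myc tumors, the number of Dlx genes called rose from 0 to 1 with DESeq2, to 2 with limma on log2(TPM + 1), to 2 with log2(TPM + 0.1) and to 2 in tumors induced at E6 alone, and leaving out each tumor in turn gave 0 to 1 (1 without 29941C). Dlx1 and Dlx2 were higher in Shh tumors under all 27 alternatives, with log2 fold changes of 1.98 to 7.76 and 1.36 to 5.79. The upper ends are from E6 alone, which keeps none of the Myc tumors high for Dlx1 and Dlx2. The calls and fold changes of these 2 genes at E6 therefore follow from the choice of tumors. Dlx6os1 (0.98 to 3.40) and Dlx6os2 (0.09 to 1.72) also kept their sign. The signs of Dlx3, Dlx4, Dlx5, Dlx6, Dlx1as and Dlx4os were not stable, and the cause was not tested. Dlx3 was 0.02 with limma and in the permutation test and 1.47 at E6, and Dlx4 was 0.01 with limma on log2(TPM + 0.1) and 0.06 at E6. Dlx5 was -0.27 at E6 and -0.05 to 1.01 without single tumors, and Dlx6 was -0.26 to 1.33 without single tumors. Dlx1as was 0.94 and 1.92 with limma, 0.94 in the permutation test, 0.23 with the scheme of mouse names as covariate, 5.21 at E6 (adjusted p 0.0424), 0.11 without intracranial extra-CNS tumors and -1.32 to 0.22 without single tumors. Dlx4os was 1.72 and Alx1 0.61 at E6. Of 518 values of the 20 list genes with the highest and lowest fold changes, 487 kept direction and call, 30 lost the call (Penk most often) and 1, Alx1 at E6, turned. All genes called numbered 3533 at E6, where fewer tumors were fitted, and 4766 to 6649 without single tumors. Of the calls, 49.7% were higher in Shh with edgeR and 75.5% with limma, and the median log2 fold change of all genes was -0.15 with edgeR, -0.03 with DESeq2, 0.20 with limma and 0.12 at E6. In the 6 pathway lists 32 genes were called, 23 to 41 under alternatives added after seeing the data. By site, the 1 gene called became 490 with DESeq2, 2 with limma on log2(TPM + 0.1), 0 at E8 alone and 0 to 3 without single tumors. Between face and intracranial tumors the 0 became 403 with DESeq2, 6 with 43990A as intracranial and 0 to 6 without single tumors, and no Dlx gene was among the calls. Over the 11 Myc tumors, 2 of 15 pairs of Dlx genes had an adjusted permutation p under 0.05 by Pearson's r and 3 by Spearman's rho. Both fell to 1 without the 2 tumors farthest from the median, and the count by rho was 1 on log2(CPM + 1) and 1 to 3 without single tumors. Low counts limit Dlx4, at or under 3 counts in 10 of 16 tumors, and Dlx6, with 0 counts in 5.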
